A study of Saccharomyces cerevisiae with 4 samples.

Results

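The 8 genes described here encode the proteins by which budding yeast takes up and uses lactate, acetate and related small acids. They were taken by name from the table of 5897 genes: the transporter genes JEN1, ADY2, ATO2 and ATO3 and the dehydrogenase genes CYB2, DLD1, DLD2 and DLD3. RNA was sequenced from the industrial Saccharomyces cerevisiae strain CY after 10 h of shaken growth in peptone and yeast extract medium with glucose. Non-stress growth was at 30 °C in 2% glucose (2 libraries) and stress growth at 36 °C in 10% glucose (2 libraries); strain, medium base and time were shared. The level of a gene is given as FPKM, a fragment count scaled by transcript length and library size. The effects of temperature and of glucose cannot be told apart, since both changed at once. The labels name no separate cultures for the replicates, so each p-value reflects the spread of these libraries alone, which may be technical. Sugar and acids left in the medium at harvest were not part of the data used here.

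Yeast can live on lactate or acetate when glucose is gone. Jen1 is a proton symporter of the plasma membrane that carries lactate, pyruvate and acetate, and its gene is repressed by glucose. Ady2, also called Ato1, carries acetate, and with Ato2 and Ato3 it forms a small family that has also been tied to ammonium export. Inside the cell, Cyb2 in the space between the mitochondrial membranes and Dld1 in the inner membrane oxidise L-lactate and D-lactate to pyruvate and hand the electrons to cytochrome c. Dld2 in the mitochondrial matrix and Dld3 in the cytosol are related enzymes that act mainly on D-2-hydroxyglutarate, and Dld3 passes the electrons on to pyruvate, which makes D-lactate.

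All 8 genes changed between the groups. The 7 genes JEN1, ADY2, CYB2, ATO2, DLD1, ATO3 and DLD2 were higher in the stress libraries, in this order of size, and DLD3 was lower. The test was limma on log2(FPKM + 1), with a Benjamini-Hochberg adjusted p below 0.05 over 5784 genes. Most genes of this table changed: 87.7% of those tested were called, 39.8% higher and 47.9% lower, and the libraries of the groups did not overlap for 93.8% of genes. That all 8 were called, with groups that did not overlap, is therefore near the background, and the sizes of the changes carry more than the count. The median log2 fold change was 2.93 over the 8 genes and -0.139 over all genes tested. A log2 fold change of at least 1 was estimated for 7 of the 8 and for 19% of genes tested. DLD2 passed this mark narrowly, at 1.02, and lay between 0.585 and 1.21 over the alternatives. Together the 8 genes took up 0.0589% ± 0.0045 of all FPKM without stress and 0.399% ± 0.0028 with it (SD, n = 2).

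**Figure D1:**
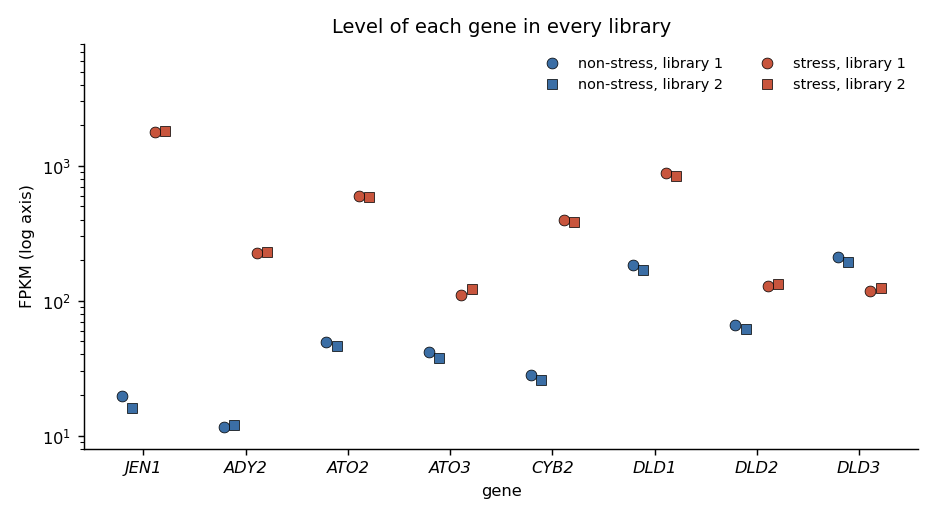
FPKM (log axis) of the 8 genes in each of the 4 libraries; circles are library 1 and squares library 2, blue is non-stress and red stress. JEN1 went from 15.9 and 19.6 to 1788 and 1809 FPKM, and DLD3 is the gene whose stress values lie below its non-stress values.

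The table's coordinates of all 8 genes were those of the R64 reference annotation, where each is a single coding exon that overlaps no other annotated gene. JEN1 (YKL217W) lies on chromosome XI at 22234 to 24084, plus strand, 22.2 kb from the chromosome end. ADY2 (YCR010C) lies on chromosome III at 132273 to 133124, minus strand. ATO2 (YNR002C) lies on chromosome XIV at 633008 to 633856, minus strand, and ATO3 (YDR384C) on chromosome IV at 1241204 to 1242031, minus strand. CYB2 (YML054C) lies on chromosome XIII at 165533 to 167308, minus strand. DLD1 (YDL174C, 145826 to 147589, minus strand) and DLD2 (YDL178W, 139522 to 141114, plus strand) sit on chromosome IV with 4711 bases and 3 other coding genes between them. DLD3 (YEL071W) lies on chromosome V at 16355 to 17845, plus strand, 16.4 kb from the end. None of the 8 shares a 50-base stretch with another coding sequence of this reference (0.0% of windows). In R64 these genes thus have no near-identical copy to split reads with at that length. The genome of strain CY itself was not examined.

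The 300 bases before the start codon are shown for the 4 genes that rose most and for the related pair DLD2 and DLD3, which moved in opposite directions. They were chosen after the values were seen, and they come from the RefSeq R64 genome, written along the strand of the gene. Capitals mark matches on either strand to any of AGGGG (the stress response element that Msn2 and Msn4 bind), GCGGGG (a core of Mig1 sites), CCAAT (bound by the Hap2/3/4/5 complex), GTCAC (the R box of Rtg1 and Rtg3) and TGACTC (the core that Gcn4 binds). Matches that touch are written as a single run of capitals.
JEN1 (chrXI:21934-22233, plus strand): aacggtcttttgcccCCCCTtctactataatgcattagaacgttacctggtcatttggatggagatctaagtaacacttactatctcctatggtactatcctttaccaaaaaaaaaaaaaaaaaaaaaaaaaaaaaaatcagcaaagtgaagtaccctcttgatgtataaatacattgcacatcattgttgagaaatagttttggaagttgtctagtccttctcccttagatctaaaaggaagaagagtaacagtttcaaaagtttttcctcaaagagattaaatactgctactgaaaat
ADY2 (chrIII:133125-133424, minus strand): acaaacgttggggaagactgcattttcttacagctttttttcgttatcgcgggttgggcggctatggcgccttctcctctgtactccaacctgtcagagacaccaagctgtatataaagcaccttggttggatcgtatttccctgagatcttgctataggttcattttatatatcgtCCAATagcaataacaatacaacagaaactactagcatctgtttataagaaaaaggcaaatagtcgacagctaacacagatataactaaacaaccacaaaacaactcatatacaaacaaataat
ATO2 (chrXIV:633857-634156, minus strand): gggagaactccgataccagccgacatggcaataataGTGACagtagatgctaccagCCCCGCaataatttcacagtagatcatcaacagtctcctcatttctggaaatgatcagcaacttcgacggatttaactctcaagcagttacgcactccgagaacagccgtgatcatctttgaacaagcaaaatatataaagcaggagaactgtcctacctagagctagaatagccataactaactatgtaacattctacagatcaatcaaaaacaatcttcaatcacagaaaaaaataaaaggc
CYB2 (chrXIII:167309-167608, minus strand): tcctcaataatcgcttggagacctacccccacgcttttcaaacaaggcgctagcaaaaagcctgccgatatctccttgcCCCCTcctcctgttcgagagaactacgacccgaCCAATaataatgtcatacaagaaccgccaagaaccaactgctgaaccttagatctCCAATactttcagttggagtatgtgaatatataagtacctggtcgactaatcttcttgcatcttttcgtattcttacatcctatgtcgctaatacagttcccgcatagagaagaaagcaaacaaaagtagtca
DLD2 (chrIV:139222-139521, plus strand): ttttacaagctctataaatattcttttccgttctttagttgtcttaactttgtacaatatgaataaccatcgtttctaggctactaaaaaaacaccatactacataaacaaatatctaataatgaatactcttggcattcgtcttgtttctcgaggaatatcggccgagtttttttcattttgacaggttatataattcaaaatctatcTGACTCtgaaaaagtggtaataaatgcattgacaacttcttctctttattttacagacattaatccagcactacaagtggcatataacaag
DLD3 (chrV:16055-16354, plus strand): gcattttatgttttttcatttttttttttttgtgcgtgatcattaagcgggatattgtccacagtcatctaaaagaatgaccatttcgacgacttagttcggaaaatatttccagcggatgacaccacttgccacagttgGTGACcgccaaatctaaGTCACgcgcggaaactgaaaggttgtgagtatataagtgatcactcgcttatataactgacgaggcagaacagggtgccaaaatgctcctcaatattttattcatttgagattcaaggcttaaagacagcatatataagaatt

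No motif was common to the 4 windows of the genes that rose most. AGGGG was found before JEN1 (starting 285 bases ahead of the start codon) and CYB2 (221 bases), on the strand opposite to the gene, and in 22.2% of the windows of 6001 nuclear coding genes. CCAAT occurred before ADY2 (123 bases), ATO3 (213 bases) and DLD1 (199 bases) and at 2 places before CYB2 (188 and 133 bases), against 41.8% of all windows. GCGGGG, held by 3.00% of windows, was found only before ATO2 among the 8, at 244 bases. GTCAC, in 26.5% of windows, was found before ATO2 (264 bases, opposite strand), ATO3 and DLD3. The DLD3 window held it at 160 bases on the opposite strand and at 143 bases on its own. ATO3 also held it at 2 places, and 3.97% of all windows hold 2 or more. TGACTC, in 7.77% of windows, was found before DLD2 (91 bases) and before ATO3, where it overlaps a GTCAC. These matches are letters in a window of the R64 genome, not of strain CY. Binding was not measured, and sites farther upstream were not searched.

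The lactate and pyruvate carrier gene JEN1 rose most. Its level was 19.6 and 15.9 FPKM in the non-stress libraries and 1788 and 1809 FPKM in the stress libraries. The groups did not overlap, and the rise of 101-fold was far larger than the difference between replicates. On the log2 scale this was 6.59 ± 0.084 (SE; limma adjusted p = 1.04e-11), and 13 of the 5784 genes tested rose more. JEN1 stood at rank 4809 and 4993 of 5897 genes by FPKM in the non-stress libraries and at rank 103 and 102 in the stress libraries. Its low values rest on 666 and 540 reads, an estimate made from how the lowest FPKM values are spaced. Of the summed FPKM of the 8 genes, JEN1 made up 3.01% ± 0.26 without stress and 42.5% ± 0.47 with it (SD, n = 2).

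The acetate transporter genes ADY2 and ATO2 rose strongly and ATO3 less. ADY2 was at 11.6 and 12.1 FPKM in non-stress and at 225 and 230 FPKM in stress libraries. It was the lowest of the 8 genes in non-stress, with 177 and 184 estimated reads, and rose 19.3-fold (log2 fold change 4.16 ± 0.061, SE; limma adjusted p = 1.82e-11). ATO2 was at 49.8 and 46.1 FPKM in non-stress and at 593 and 585 FPKM in stress libraries. It rose 12.3-fold, or 3.59 ± 0.056 on the log2 scale (SE; limma adjusted p = 2.38e-11). ATO3 went from 41.7 and 37.6 to 110 and 121 FPKM. Its groups did not overlap either, and the rise was 2.92-fold (log2 fold change 1.52 ± 0.074, SE; limma adjusted p = 4.75e-08). Among the genes tested, 1.49% rose more than ADY2, 2.44% more than ATO2 and 12.4% more than ATO3.

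The family's makeup shifted with these unequal changes. ADY2 and ATO2, which the RefSeq annotation lists as a pair from the whole genome duplication, have proteins with 80.1% identical residues over 277 aligned positions, while ATO3 has 34.3% identity to Ady2 and 34.8% to Ato2. The summed FPKM of the 3 genes went from 103 and 95.8 to 928 and 936. ATO3 held 39.9% ± 0.82 of this sum in non-stress and 12.4% ± 0.78 in stress libraries. ADY2 went from 11.9% ± 0.97 to 24.4% ± 0.19 and ATO2 from 48.2% ± 0.15 to 63.2% ± 0.97. ATO2 stayed the most abundant of the 3 in every library. The ratio of ADY2 to ATO2 was 0.232 and 0.262 in non-stress and 0.380 and 0.393 in stress libraries. These ratios did not overlap between groups, but an exact permutation test of 2 against 2 libraries (two-sided) cannot give a p below 0.333, and gave 0.333, also after adjustment over the 3 ratios tested.

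**Figure D2:**
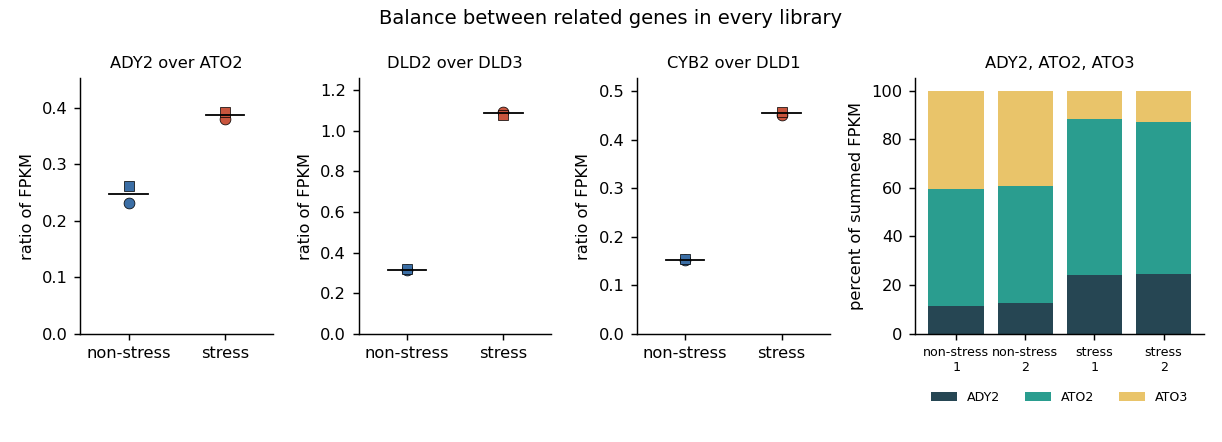
Ratio of FPKM between 3 pairs of genes in each library (points; black lines are group means, blue non-stress, red stress) and, at the right, the percent of the summed FPKM of ADY2, ATO2 and ATO3 that each holds. DLD2 over DLD3 went from 0.316 to 1.09 on average, and the part of ATO3 from 39.9% to 12.4%.

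Both genes of lactate oxidation rose, CYB2 more than DLD1. CYB2, which encodes the L-lactate dehydrogenase also known as flavocytochrome b2, was at 28.03 and 25.96 FPKM in non-stress and at 398 and 385 FPKM in stress libraries. This 14.5-fold rise came to 3.81 ± 0.059 on the log2 scale (SE; limma adjusted p = 2.31e-11), and 1.94% of genes tested rose more. DLD1, which encodes the D-lactate dehydrogenase, was at 185 and 169 FPKM in non-stress and at 882 and 839 FPKM in stress libraries. DLD1 was thus well above CYB2 in every library and rose 4.85-fold (log2 fold change 2.27 ± 0.059, SE; limma adjusted p = 5.83e-10). The ratio of CYB2 to DLD1 went from 0.151 and 0.153 to 0.451 and 0.458. Its change of 1.58 on the log2 scale was much larger than the spread between libraries, with the smallest p of 0.333 that the exact permutation test allows.

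DLD2 and DLD3 moved in opposite directions, from DLD3 well above DLD2 in non-stress to nearly equal FPKM in stress libraries. DLD2, the mitochondrial enzyme gene, was at 66.2 and 62.0 FPKM in non-stress and at 129 and 134 FPKM in stress libraries. The rise was 2.05-fold, or 1.02 ± 0.059 on the log2 scale (SE; limma adjusted p = 1.63e-07). DLD3, the cytosolic enzyme gene, was at 212 and 194 FPKM in non-stress and at 118 and 124 FPKM in stress libraries. DLD3 was 1.68-fold lower under stress, a log2 difference of -0.74 ± 0.060 (SE; limma adjusted p = 2.20e-06). It was the highest of the 8 genes in both non-stress libraries. The ratio of DLD2 to DLD3 was 0.312 and 0.319 in non-stress and 1.09 and 1.08 in stress libraries, a change of 1.78 on the log2 scale (exact permutation p = 0.333). Added together, the pair came to 267 ± 15.5 FPKM without stress and 252 ± 7.50 FPKM with it (SD, n = 2), and the libraries of the groups overlapped in this sum. The Dld2 and Dld3 proteins have 60.4% identical residues over 490 aligned positions, while Dld1 has 28.7% identity to Dld2 and 33.6% to Dld3.

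**Figure D3:**
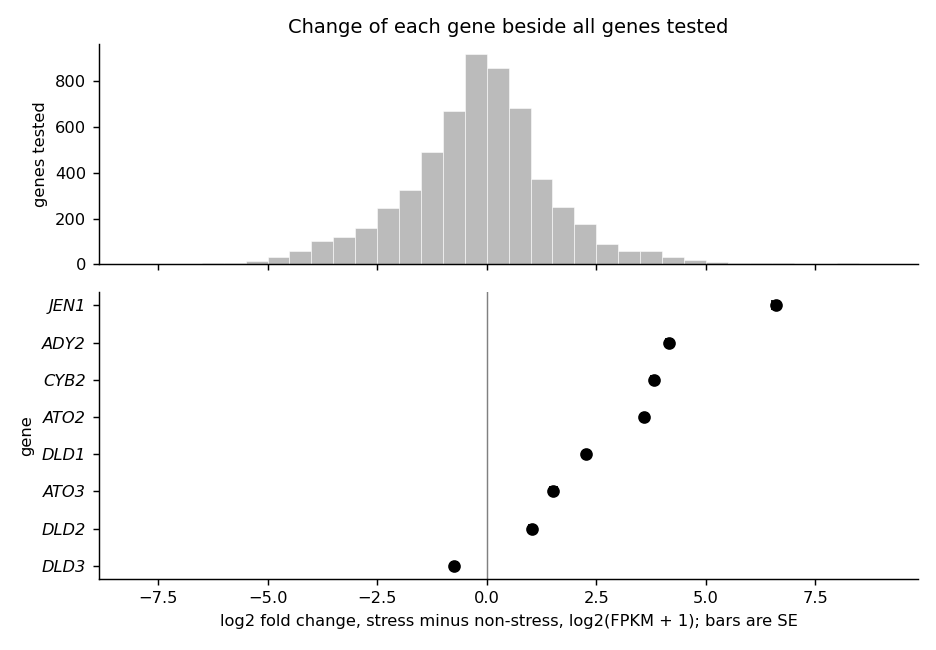
Top, number of genes tested by log2 fold change (stress minus non-stress) on the log2(FPKM + 1) scale, in bins; bottom, the 8 genes on the same axis with their SE, which is mostly smaller than the points. JEN1 at 6.59 lies near the right end of all genes, and DLD3 at -0.74 is left of 0.

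Because FPKM is a share of the library, the level of every gene depends on the total. All genes tested had a median log2 fold change of -0.139, which moved between -0.568 (ribosomal protein genes left out of the total) and 0.0854 (quantile normalization). With ribosomal protein genes left out, 1606 genes were called higher and 3574 lower, against 2300 and 2771 otherwise. Relative to the median of all genes in the same fit, JEN1 lay 6.73 above, DLD2 lay 1.16 above and DLD3 was at -0.60 in the main fit. Over all 12 alternatives and the main fit, this relative value lay between 1.00 and 1.18 for DLD2 and between -0.91 and -0.57 for DLD3. The direction of each of the 8 genes was the same under every scaling tried.

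FPKM is scaled by length, but other biases between genes remain, so genes at close levels are not firmly ranked. The order of the levels by FPKM differed between the groups. In non-stress libraries it was DLD3 (203 FPKM on average), DLD1 (177), DLD2 (64.1), ATO2 (48.0), ATO3 (39.7), CYB2 (27.0), JEN1 (17.8) and ADY2 (11.8), and no neighbours in this order overlapped between the libraries. In stress libraries it was JEN1 (1798), DLD1 (861), ATO2 (589), CYB2 (391), ADY2 (228), DLD2 (131), DLD3 (121) and ATO3 (116). Here DLD3 and ATO3 overlapped, and the other neighbours did not. ATO3, DLD2 and DLD3, which rose least or fell, were the lowest in stress libraries.

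For each gene, the 3 others with the smallest mean absolute difference of log2(FPKM + 1) over the 4 libraries were named. For JEN1 they were AGX1, CHA1 and ICL1, with differences of 0.134, 0.196 and 0.434. AGX1, alanine:glyoxylate aminotransferase, was at 1717 and 1687 FPKM in the stress libraries, CHA1, a serine and threonine deaminase, at 2155 and 2060, and ICL1, isocitrate lyase, at 1128 and 1136. The closest gene to ADY2 was ECM13 (0.139), to ATO2 ECM4 (0.101), to ATO3 TAM41 (0.0408), to DLD2 RAV2 (0.0488) and to DLD3 YPD1 (0.0468). For CYB2 it was ALD3 (0.0599), an aldehyde dehydrogenase gene, and for DLD1 it was BDH1 (0.0440), the butanediol dehydrogenase gene. With 2 conditions this likeness says only that levels and changes were close.

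The counts of the gene lists that follow are to be read against the 39.8% of all genes tested that were higher and the 47.9% that were lower. Genes that form and activate acetate went both ways: 5 of 8 rose and 3 fell (median log2 fold change 1.86). ACH1, which transfers coenzyme A between acetate and succinyl-CoA in mitochondria, rose 46.1-fold, from 69.1 ± 1.49 to 3183 ± 59.2 FPKM (SD, n = 2). ACS1, the acetyl-CoA synthetase of cells without glucose, rose 7.79-fold, from 33.1 ± 3.45 to 258 ± 1.63 FPKM. ALD3 rose 15.5-fold, though another gene holds 40.4% of its 50-base windows, so its split of reads is uncertain. The same share was found for ALD2, which rose 5.01-fold. The 3 that were lower were ALD5 (log2 fold change -3.98), ALD6, the main cytosolic acetaldehyde dehydrogenase (-1.44), and ACS2, the synthetase of glucose-grown cells (-1.30). ACS2 went from 188 ± 6.22 to 76.0 ± 2.69 FPKM, so that the synthetase genes changed their order.

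Of the genes that take up the electrons and pyruvate from lactate oxidation, 3 of 5 rose (median 2.98). CYC1 and CYC7, the genes of the cytochrome c forms that accept electrons from Cyb2 and Dld1, rose 84.7-fold and 11.9-fold. MPC3, the pyruvate carrier subunit of respiring cells, rose 7.92-fold, from 91.9 ± 15.6 to 727 ± 2.61 FPKM. MPC1, the subunit common to both carriers, and MPC2, the subunit of fermenting cells, were lower, with log2 fold changes of -0.31 and -0.62; the MPC1 call was lost after median centring. All 6 genes of the glyoxylate cycle and gluconeogenesis, which turn acetate into sugar, were higher, with a median of 7.64. They ranged from MDH2 (4.71), cytosolic malate dehydrogenase, to FBP1 (8.41), fructose-1,6-bisphosphatase. JEN1 (6.59) lies inside this range, and the other transporter and dehydrogenase genes lie under it.

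Genes whose enzymes form the substrates of Dld1, Dld2 and Dld3 went in different directions. All 3 glyoxalase genes, whose enzymes turn methylglyoxal into D-lactate, rose: GLO1 by 3.73-fold, GLO2 of the cytosol by 3.29-fold and GLO4 of the mitochondria by 1.81-fold. Both 3-phosphoglycerate dehydrogenase genes, SER3 and SER33, whose enzymes can also form D-2-hydroxyglutarate, were lower. SER3 went from 288 ± 11.9 to 54.6 ± 0.438 FPKM, and SER33 from 71.9 ± 5.53 to 28.6 ± 1.56 FPKM. DLD3 was lower like SER3 and SER33, as were 47.9% of all genes tested, while DLD2 rose. Whether these changes are linked was not tested.

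DLD3 went against the other listed targets of the retrograde pathway, by which respiratory deficiency signals to the nucleus through Rtg1 and Rtg3. Whether this pathway had a part in any of these changes was not tested. Listed targets can answer to other regulators as well, so their rise is not a measure of the pathway. The 6 other targets in the list all rose (median log2 fold change 3.27), with 8.5% of windows shared for PYC1. ACO1 rose 73.3-fold, CIT1 17.9-fold and IDH2 10.5-fold, IDH1 had a log2 fold change of 3.16, and CIT2, the target most used as a reporter, had a log2 fold change of 2.49 ± 0.087 (SE). Of the 4 regulator genes RTG1 rose (0.53), RTG3 (-0.27) and MKS1 (-0.16) fell, and RTG2 did not pass (-0.07). RTG2 was called lower when ribosomal protein genes were left out of the total. These changes are small: the RTG1 call was lost when ribosomal protein genes were left out of the total, RTG3 was lost after median centring, and MKS1 was lost in 5 of 12 alternatives and changed sign after median centring.

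Of 16 regulators of carbon source use 10 rose and 6 fell (median 0.995), where 87.7% of all genes tested were called, 39.8% higher and 47.9% lower. CAT8, whose product activates JEN1 and the gluconeogenic genes, rose 13.6-fold, from 10.0 ± 1.39 to 136 ± 3.06 FPKM (SD, n = 2). SIP4 rose 16.3-fold and HAP4, the regulated subunit of the CCAAT-binding complex, 10.2-fold. MIG1, the glucose repressor, went from 140 ± 8.99 to 21.6 ± 0.870 FPKM. The other 5 that were lower were TUP1 (-2.12), MIG2 (-1.59), SNF1 (-0.52), HAP1 (-0.36), whose product activates CYB2 with heme, and CYC8 (-0.27); the CYC8 call was lost after quantile normalization and after median centring. The repressor gene NRG1 was among those that rose (0.67).

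**Figure D4:**
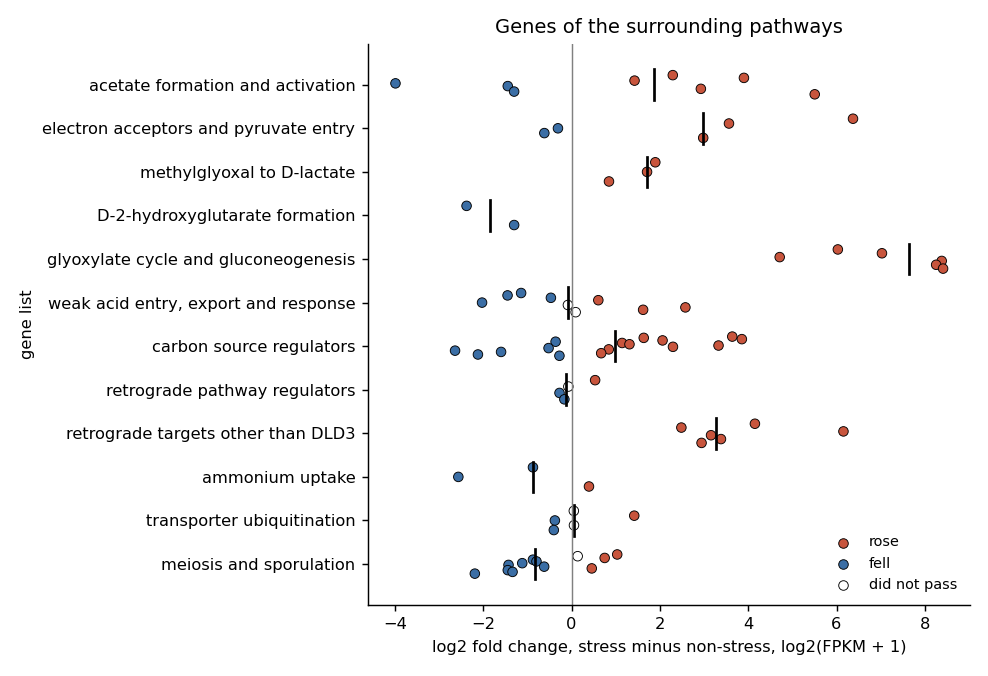
Log2 fold change (stress minus non-stress, log2(FPKM + 1) scale) of 79 genes in 12 lists; red points rose, blue points fell, white points did not pass, and black bars are list medians. All 6 retrograde targets other than DLD3 rose, and both genes of D-2-hydroxyglutarate formation fell.

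Genes of acid stress and of the handling of transporters showed no common direction. In the list of weak acid entry, export and response 3 of 9 rose and 4 fell (median -0.0814), near the shares of 39.8% and 47.9% over all genes tested. The secreted protein gene YGP1 rose 5.98-fold and YRO2 3.08-fold, and HAA1, the activator that responds to acetic acid, had a log2 fold change of 0.61. The acid pump gene PDR12 (-1.45) and TPO2 (-2.03), an acid exporter gene with 41.3% shared windows, were among those that were lower, with the glycerol and acetic acid channel gene FPS1 (-1.14) and WAR1 (-0.47). TPO3 (-0.08), with 40.8% shared windows, and PHM8 (0.09) did not pass. The split of reads is uncertain for TPO2 and TPO3. Among ubiquitination genes ROD1, the arrestin that directs Jen1 to degradation when glucose returns, rose 2.84-fold, from 10.5 ± 0.0636 to 29.8 ± 0.693 FPKM. ROG3 (-0.38) and BUL2 (-0.40) fell, both losing the call after quantile normalization, where BUL2 changed sign. The ligase gene RSP5 (0.05) and BUL1 (0.06) did not pass. With ribosomal protein genes left out of the total, TPO3, PHM8, RSP5 and BUL1 were all called lower.

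Ammonium uptake and sporulation genes were examined because the Ato family is tied to ammonium and ADY2 to spore formation. MEP2, the high-affinity ammonium permease gene, went from 56.1 ± 6.88 to 8.64 ± 0.297 FPKM, and MEP1 also fell (-0.87). MEP3 rose by 0.40, a call that was lost, with a change of sign, when ribosomal protein genes were left out of the total. Of 12 meiosis and sporulation genes 8 fell and 3 rose (median -0.833), against 47.9% lower and 39.8% higher over all genes tested. The calls of SPO11 and SPS4, both among the 8, were lost after quantile normalization. Their levels were low: the late spore wall genes DIT1 and DIT2 were at 3.84 ± 0.375 and 1.84 ± 0.488 FPKM in stress libraries, and were 2.92-fold and 6.44-fold higher in non-stress. SPS1 and HOP1 were 3.08-fold and 3.12-fold higher in non-stress. The 3 that rose were IME1, the starter of meiosis, at 23.4 ± 3.90 against 48.8 ± 1.39 FPKM, IME4 (0.75) and SMK1 (0.46); SMK1 lost the call without stress library 1 and when ribosomal protein genes were left out of the total.

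Of the 16 nearest coding genes on either side of the 8, 5 rose, 8 fell and 3 did not pass, which is near the shares over all genes tested (39.8% higher, 47.9% lower). JEN1 sits between SRY1 (-0.89), 3894 bases away, and URA1 (-2.84), 1130 bases away, which both fell. ADP1, 599 bases upstream of ADY2 on the same strand, rose by 1.05. The neighbour that rose most was CIT1, citrate synthase, 1946 bases downstream of ATO2 on the same strand, with a log2 fold change of 4.15. Between DLD2 and DLD1, which rose by 1.02 and 2.27, YDL177C (0.52) and AIR2 (0.56) rose and GID12 did not pass (0.17, adjusted p = 0.0560, limma). The neighbours of DLD3 were RMD6, which did not pass (-0.08), and DSF1, which rose by 0.77.

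**Figure D5:**
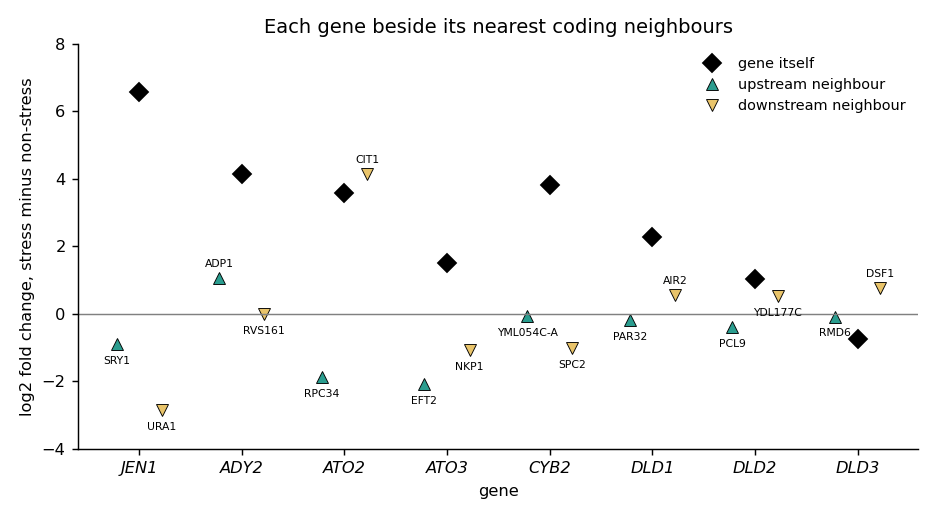
Log2 fold change (stress minus non-stress) of the 8 genes (black diamonds) and of the nearest coding gene upstream (green triangles) and downstream (yellow triangles) of each. JEN1 at 6.59 stands between SRY1 and URA1, which lie below 0, and CIT1 beside ATO2 is the neighbour with the largest rise.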

How the data were processed

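FPKM values of all genes and libraries were deposited by the authors in 1 table, with 2 decimals. Named in the submitters' processing notes, without roles, are RSEM 1.2.8, Bowtie2 2.2.5, HISAT2 2.1.0 and build R64. For strandedness and read filters, the sources used here give nothing. Per the labels' protocols, oligo(dT) beads selected the RNA and random hexamers primed the cDNA. A further deposited column gives transcript length, here coding length (98.8% multiples of 3).

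The 8 genes and the 12 lists around them were chosen with earlier results of these data known. The test took the 5784 genes that reached an FPKM of 1 in 2 or more libraries. limma 3.58.1 (R 4.3.3; lmFit, eBayes with a trend) compared the groups on log2(FPKM + 1), a pseudocount of 1 that understates changes of low genes, with 2 residual and 6.51 prior degrees of freedom, two-sided, with Benjamini-Hochberg adjustment over all genes tested. Fold values are ratios of mean FPKM. Up to 4 called genes per list with the largest change were named, with those against their list's direction. Others were named after their values were seen, to complete a list.

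FPKM sums were 988848 to 1064993. Depth was estimated from the steps between values worth under 8 reads: 18700000 fragments in each non-stress and 18200000 in each stress library, with 85.9% to 90.5% of these values within 0.1 of a whole read. FPKM steps depend on length, so no count test was run, and reads are estimates. Replicates had a Pearson r of 0.9965 and 0.9979 across 5784 genes, which are not independent replicates.

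Of the table's genes, 5894 were matched by identifier to the reference, 5814 with identical coordinates. Windows of 50 bases were compared over all coding sequences, and proteins translated from R64 were aligned globally (Biopython 1.88, BLOSUM62). The limma step was run on simulated data of 5784 genes, with 100 genes changed 4-fold and 100 changed 2-fold. It recovered 99 and 92 of these, with 11 false calls. So few changed genes do not match the real data, where 87.7% were called. Python 3.11.15, pandas 2.3.3, numpy 2.4.6, scipy 1.17.1 and matplotlib 3.10.9 were used.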

Additional observations from a re-analysis of the deposited data

How the results depend on the processing

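All 8 genes passed the threshold in the same direction under the 12 alternatives run: quantile normalization, equal FPKM sums, median centring, ribosomal protein genes left out of the total, the replicate number as a block, a pseudocount of 0.1, a minimum FPKM of 5, no filter on low genes, and each library left out. The log2 fold change of JEN1 lay between 6.16 and 6.80 and that of DLD3 between -1.18 and -0.55, and the highest adjusted p of any of the 8 was 0.000343 (limma). The count of all genes called lay between 4806 and 5180 and that of list genes between 71 and 76, against 5071 and 73. Without ribosomal protein genes in the total, calls were 1606 higher and 3574 lower, against 2300 and 2771, and after quantile normalization 2692 and 2381. The 6 list genes that did not pass in the main fit were all called without ribosomal protein genes in the total. Quantile normalization and median centring each added a call for 4 list genes. Where a library was left out, the lone library of its group was assumed to vary like the others. Same-numbered libraries did not deviate together across genes (correlation -0.00503). This cannot say whether they were grown or prepared together, which the labels do not give. With the replicate block 5073 genes were called, 8 of the 8 and 73 of the list genes. Among the 8 genes the lowest value, ADY2 in non-stress library 1, rests on 177 estimated reads. Counting error was not estimated separately, and it weighs more on lower values, such as DIT2 at 1.84 FPKM in stress libraries.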

Other observations

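The authors' deposited table carries a column headed WGCNA, the name of a co-expression network method, with a module colour for 1040 of its 5897 genes. The samples behind the modules are not named in the sources used here. If these 4 libraries were among them, the directions given below are not independent of the labels. JEN1, ADY2, ATO2, ATO3, CYB2 and DLD1 are labelled blue in the authors' deposited table, and DLD2 and DLD3 carry no label. Of the 356 genes labelled blue, 355 were higher in the stress libraries by the limma test and 1 was lower, while all 521 genes labelled turquoise were lower. Over all genes tested, 39.8% were higher and 47.9% lower. Of the 163 genes labelled brown, 60 were higher and 60 lower.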
